A study of Gossypium hirsutum with 6 samples.

Results

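In the stem apex of upland cotton (Gossypium hirsutum), a small number of transcripts were listed at 0 either in the wild type or in both of its height mutants, and were present at a low level on the other side. The members were chosen from the values themselves. Either the wild type had 0 and both mutants had at least 2 RPKM, or the wild type had at least 2 RPKM and both mutants had 0, with a mean below 10 RPKM over the 3 lines. RPKM is a read number scaled for transcript length and library size. Of the 156846 transcripts listed, 130 were members. The first class, on in both mutants, held 39 transcripts and the second class, off in both mutants, held 91. The values that chose them are given as a description, without a test.

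Ari1327 (A1) is a dwarf mutant, Ari3697 (A3) is a tall-culm mutant, and Ari971 (A9) is their wild type. Both mutants came from gamma-ray irradiation of Ari971, and all lines were grown untreated in greenhouse pots until the fifth true leaf stage. One mRNA library per line was used, so no difference between lines has a replicate check and no p-value is given. The methods speak of pooling the RNA of the lines before library construction, while the sample labels give each library a line of its own, and the labels were followed here. How many plants went into a library is not given in the sources used here. The deposited files pair no transcript with a gene name, and no member is among the transcripts that the additional files of the paper name. The stem apex label was therefore not checked against markers, and no function is given for any member.

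The stem apex holds the shoot meristem and the youngest internodes, whose cell division and elongation set the height of a plant. Gamma rays break DNA and can leave deletions, rearrangements or changes of single bases. Upland cotton is a tetraploid with an At and a Dt subgenome, so most genes have a closely similar partner. In a Trinity assembly made without a genome, transcripts that share sequence are placed in one component and numbered within it (_seq1, _seq2). A component can therefore hold splice forms, alleles or copies of both subgenomes. A transcript listed at 0 may belong to a component that is read well through its other transcripts, or it may be the only transcript there. This distinction is followed below for each class.

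The 3 libraries were alike in total, with RPKM sums from 798674 to 805778 and medians from 1.55 to 1.60. The transcripts listed at 0 numbered 5633 for A1, 5712 for A3 and 4963 for A9. The study gives a total of clean reads for each library, which is highest for A9 and lowest for A3. The deposited files hold neither the reads of a transcript nor its length, so the reads behind a value of 2 RPKM are unknown and no limit was set for a value of 0. The relative worth of 1 read can be seen in the low values, because they repeat at a fixed ratio where libraries have the same number of reads. The most frequent ratio among transcripts of 0.3 to 3 RPKM was 1.09 for A1 over A9 and 1.12 for A3 over A9. At equal RPKM the A9 library therefore held more reads than either mutant library. The ratio was 0.975 for A1 over A3.

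The 39 transcripts on in both mutants were weakly expressed. They had from 2.02 to 15.89 RPKM in A1, with a median of 3.11, and from 2.07 to 10.45 RPKM in A3, with a median of 2.66, against 0 in A9. Only 8 of them had at least 5 RPKM in A1 and 6 in A3. These 39 are 0.0249% of all transcripts, a share that depends on the thresholds of the rule. Among the 44682 transcripts with at least 2 RPKM in both mutants and a mean below 10, they are 0.0873%. In whole tissue, fewer cells of a type and less RNA per cell cannot be told apart.

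**Figure D1:**
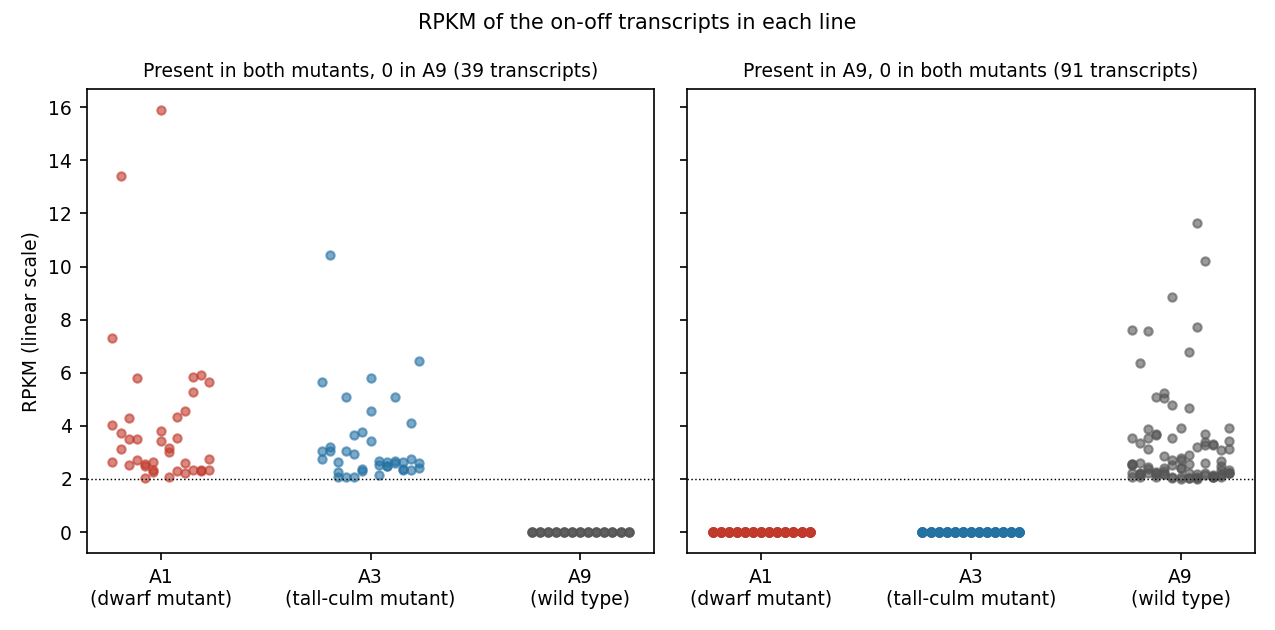
RPKM of each member in A1, A3 and A9 (linear axis, 1 point per transcript and line), with the class on in both mutants on the left and the class off in both mutants on the right. The dotted line marks the threshold of 2 RPKM, and many points lie just above it, with the highest values being 15.89 RPKM in A1 and 11.64 RPKM in A9.

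Ranked by the lower of the values in the mutants, the first of this class was comp10202_c0_seq2, whose component was listed at 0 as a whole in the wild type. It had 13.41 RPKM in A1 and 10.45 RPKM in A3, against 0 in A9. Its only partner, comp10202_c0_seq1, had 7.30 RPKM in A1 and 5.65 RPKM in A3, against 0 in A9. Both were therefore well present in each mutant, and the component as a whole had 20.71 RPKM in A1, 16.10 RPKM in A3 and 0 in A9. The division between the pair was nearly the same in both mutants, since comp10202_c0_seq2 made 64.8% of the component in A1 and 64.9% in A3. As the transcripts of one component can share reads, they are not independent of each other.

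The next member, comp43502_c0_seq3, had the highest value of any member, 15.89 RPKM in A1, with 5.82 RPKM in A3 and 0 in A9. The other high members were the only transcript of their component. The transcript comp9639_c0_seq1 had 5.64 RPKM in A1 and 6.46 RPKM in A3, and comp3237_c0_seq1 had 5.79 RPKM in A1 and 5.09 RPKM in A3, both against 0 in A9. These 5 transcripts are the members of the class with at least 5 RPKM in both mutants. Below them, comp80385_c0_seq1 had 4.55 RPKM in A1 and 5.09 RPKM in A3, and comp25584_c0_seq1 had 5.93 RPKM in A1 and 4.11 RPKM in A3. For comp20398_c0_seq1 the values were 3.43 RPKM in A1 and 4.55 RPKM in A3. In A9 each of them was listed at 0, so the lines do not overlap for any of them, as the rule requires.

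The rule set a minimum in each mutant but did not use the ratio between them. The members were not all equal in the dwarf and the tall-culm mutant. A1 was higher in 20 of the 39 and A3 in 19, and the median log2 ratio of A1 over A3 was 0.15, beside -0.02 for all transcripts with at least 2 RPKM in both mutants and a mean below 10. The ratio ranged from -0.55 to 1.45. At least 2-fold more was seen in A1 for 3 members, or 7.69%, and in A3 for 0. The same 2-fold difference was met by 2.75% of transcripts that reached 2 RPKM in both (mean below 10) and by 14.0% of all transcripts above 0 in both. Beside these percentages, 3 of 39 is a small count from which no excess is read.

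The members with the larger values in the dwarf mutant were comp43502_c0_seq3, which was 2.73-fold higher in A1 than in A3, comp88743_c0_seq1 and comp1779_c0_seq1. The RPKM of comp88743_c0_seq1 was 5.85 in A1 and 2.34 in A3, a 2.5-fold difference. That of comp1779_c0_seq1 was 4.28 in A1 and 2.09 in A3, a 2.05-fold difference. At the other end, comp115447_c0_seq1 had 2.5 RPKM in A1 and 3.66 RPKM in A3, and comp117559_c0_seq1 had 2.63 RPKM in A1 and 3.77 RPKM in A3. Their log2 ratios were -0.55 and -0.52, short of a 2-fold difference.

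In 8 of the 39 members, the ratio of A1 over A3 lay within 1% of 0.975, the ratio at which both libraries have the same number of reads. This was 20.5% of the class, beside 4.78% of all 44682 transcripts that reached 2 RPKM in both mutants with a mean below 10. The sets were not matched for level, and the ratio was itself taken from values of 0.3 to 3 RPKM. The difference was not tested, and no excess is read from it. The RPKM of comp16749_c0_seq1 was 3.11 in A1 and 3.19 in A3, and comp22845_c0_seq1 had 2.61 and 2.67 RPKM in A1 and A3. Both comp14544_c0_seq1 and comp2000_c0_seq1 had 2.33 RPKM in A1 and 2.39 RPKM in A3. Of the other 4, comp146301_c0_seq1 had 2.30 RPKM in A1 and comp4141_c0_seq1 2.25 RPKM, while comp217908_c0_seq1 and comp18618_c0_seq1 had 2.09 and 2.02 RPKM there. In A1 each of these 8 transcripts was at or below the median of the class.

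**Figure D2:**
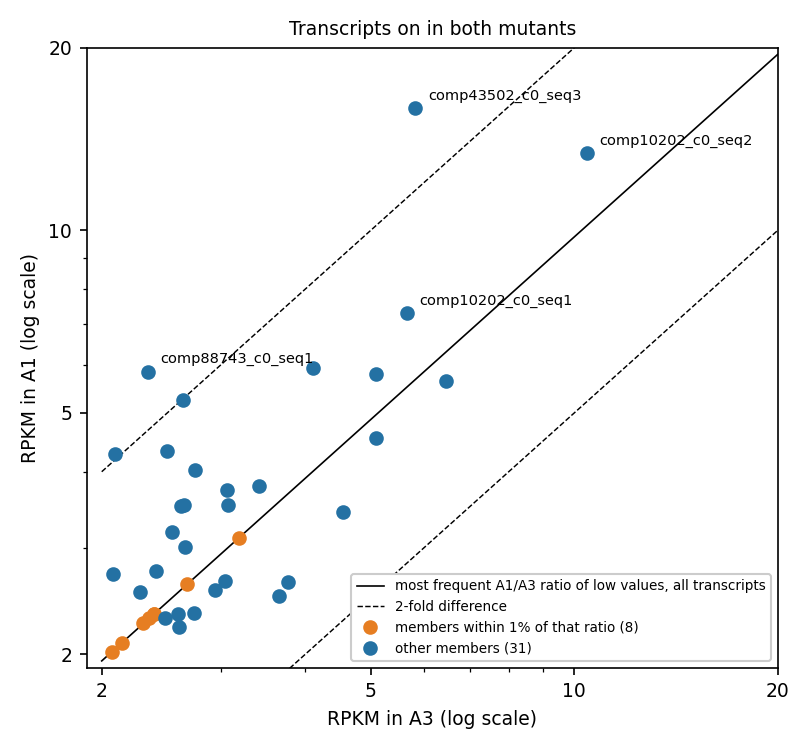
RPKM in A1 (vertical, log scale) against RPKM in A3 (horizontal, log scale) for the 39 transcripts on in both mutants, with the most frequent ratio of low values as a solid line and 2-fold differences as dashed lines. In orange are the 8 members within 1% of a ratio of 0.975, and above the upper dashed line are the 3 members at least 2-fold higher in A1.

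The 91 transcripts off in both mutants had from 2.01 to 11.64 RPKM in A9, with a median of 2.48. In A1 and in A3 all 91 were listed at 0. Of the 91, 46 were under 2.5 RPKM and 11 had at least 5 RPKM in A9. They make 0.0580% of all transcripts and 0.179% of the 50954 transcripts that reached 2 RPKM in A9 and a mean below 10. These shares depend on the thresholds of the rule. A member of this class needs a signal in the A9 library alone, while a member on in both mutants needs it in both mutant libraries. The numbers 91 and 39 are therefore not measures of the same thing.

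The highest of the class was comp74829_c0_seq1, with 11.64 RPKM in A9, followed by comp79269_c0_seq1 with 10.22 RPKM. The transcript comp42726_c0_seq4 had 8.85 RPKM in A9 and comp3184_c0_seq2 7.74 RPKM. Close together came comp100076_c0_seq1 with 7.61 RPKM and comp106229_c0_seq1 with 7.59 RPKM, then comp69822_c0_seq1 with 6.77 RPKM and comp106081_c0_seq1 with 6.35 RPKM. In both mutants each of these 8 was listed at 0. All except comp42726_c0_seq4 and comp3184_c0_seq2 were the sole transcript of their component. Of the other 83 members, the highest was comp117253_c0_seq1 at 5.25 RPKM in A9.

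Both classes ended in a crowd at the threshold. On the inside lay comp18618_c0_seq1 with 2.02 RPKM in A1 and 2.07 RPKM in A3, comp18415_c0_seq1 with 2.71 and 2.08 RPKM, and comp1779_c0_seq1, named above. Just outside, comp3468_c0_seq2 had 2.01 RPKM in A1 and 1.99 RPKM in A3, comp35138_c0_seq1 had 1.94 and 2.13 RPKM, and comp7497_c0_seq1 had 1.88 and 2.11 RPKM, all with 0 in A9. For the second class, comp268841_c0_seq1 and comp316303_c0_seq1 with 2.01 RPKM and comp214895_c0_seq1 with 2.02 RPKM in A9 were inside. The transcripts comp266155_c0_seq1, comp307486_c0_seq1 and comp407797_c0_seq1, each with 1.99 RPKM in A9 and 0 in the mutants, were outside. The limit of 10 on the mean removed no transcript, as the highest mean was 7.95 RPKM for comp10202_c0_seq2.

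Below the threshold the same patterns went on in larger numbers. A value of 0 in A9 with any value above 0 in both mutants was found for 3731 of the 156846 transcripts. Their median values were 0.88 RPKM in A1 and 0.82 RPKM in A3. A value of 0 in both mutants was found for 777 transcripts, with a median of 1.31 RPKM in A9. The members are thus the upper end of these sets. Both patterns were found for every line. A value of 0 in A1 alone was listed for 4316 transcripts and in A3 alone for 4243, both more than for A9. With a mutant as the line apart, a value of 0 in both other lines was found for 692 transcripts (A1) and 540 transcripts (A3).

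The larger part of both classes stood alone in the assembly. In the class on in both mutants, 31 of 39 members (79.5%) were the only transcript of their component, and in the class off in both mutants 82 of 91 (90.1%). Over all transcripts this share was 35.2%, and it was 32.1% over the transcripts with a mean from 0.67 to below 10 RPKM. Among transcripts with a mean below 10 RPKM, it was 19.2% of those with at least 2 RPKM in both mutants. It was 23.0% of those with at least 2 RPKM in A9. The sets in which a mutant stood apart by the same rule were also high, with 89.7% of the transcripts present in A1 alone and 90.6% of those present in A3 alone, and 46.0% and 66.7% of those listed at 0 in A1 or in A3 alone. A high share of sole transcripts is thus not particular to the members. For these sole transcripts the whole component was listed at 0 on one side of the comparison.

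Another transcript present in all 3 lines was found in the component of 6 of the 39 members on in both mutants (15.4%) and of 5 of the 91 off in both mutants (5.49%). These shares moved with the threshold for members, to 7.17% of 488 and 1.9% of 631 at 1 RPKM. Among all transcripts it was 64.5%, and among those with a mean from 0.67 to below 10 RPKM 67.6%. With a mean below 10 RPKM, it was 80.7% of transcripts with at least 2 RPKM in both mutants and 76.8% of those with at least 2 RPKM in A9. Low shares were also found where a mutant stood apart. The share was 2.38% for the 126 transcripts present in A1 alone by the same rule, and 4.71% for the 85 present in A3 alone. Among transcripts listed at 0 in a single line it was 44.0% of 50 for A1 and 16.7% of 30 for A3. These differences between sets were not tested, because transcripts are not replicates.

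**Figure D3:**
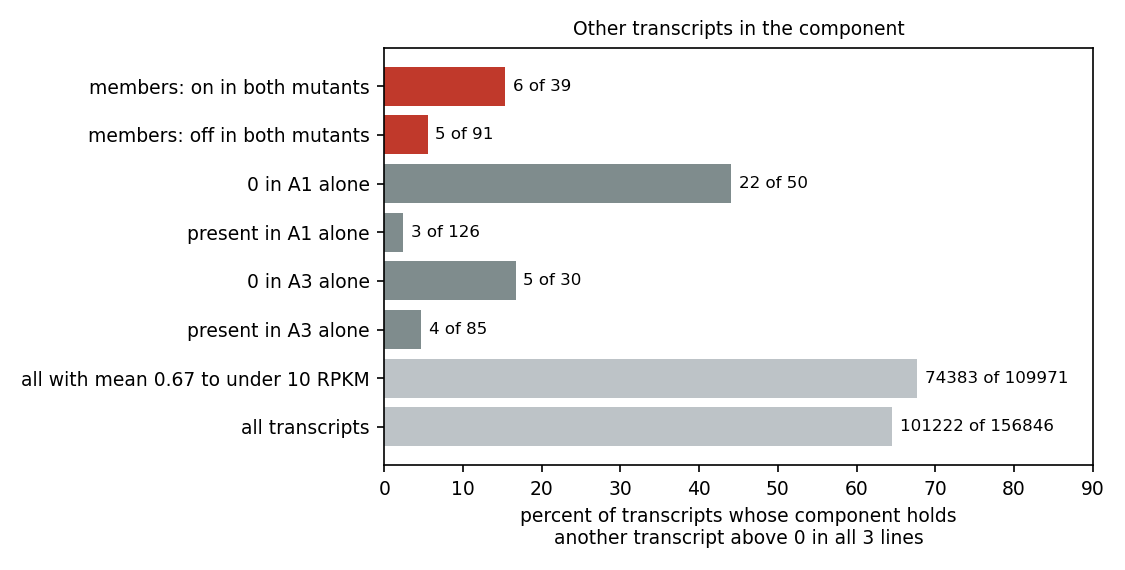
Percent of transcripts whose component holds another transcript above 0 in all 3 lines, for both classes of members (red), for the same rule with A1 or A3 as the line apart (dark grey) and for all transcripts (light grey). The bars of the members stand at 15.4% and 5.49%, below the 64.5% of all transcripts.

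While comp10202_c0 was at 0 as a whole in A9, 3 components with several transcripts were at 0 as a whole in both mutants. In comp27047_c0 both transcripts were members, with 3.69 RPKM for comp27047_c0_seq1 and 3.31 RPKM for comp27047_c0_seq2 in A9. In comp5526_c0 the member comp5526_c0_seq1 had 2.79 RPKM in A9, and its partner comp5526_c0_seq2 missed the threshold with 1.97 RPKM. The member comp3184_c0_seq2 made 96.1% of its component in A9, beside comp3184_c0_seq1 at 0.31 RPKM. In the mutants all of these were listed at 0. Together with the sole transcripts, the whole component was listed at 0 for 33 of the 39 members on in both mutants in A9, and for 86 of the 91 off in both mutants in A1 and A3.

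The remaining 6 and 5 members belonged to components that were read in every line. In 4 of the 6 components of the class on in both mutants, the sum of the other transcripts differed by less than 2-fold between each mutant and A9. The member comp26733_c0_seq4 had 2.33 RPKM in A1 and 2.59 RPKM in A3, against 0 in A9. The other transcripts of its component summed to 33.80 RPKM in A1 and 29.95 RPKM in A3, against 29.31 RPKM in A9, so the member was a small part, 6.45% in A1, of a component at a similar level in all lines. The member comp31560_c0_seq4, at 2.53 RPKM in A1, 2.28 RPKM in A3 and 0 in A9, made 27.4% of its component in A1 and 27.3% in A3. Its other transcripts summed to 6.71 RPKM in A1, 6.06 RPKM in A3 and 6.86 RPKM in A9.

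For comp28901_c0_seq5 the values were 3.73 RPKM in A1 and 3.06 RPKM in A3, against 0 in A9. It had 5 other transcripts, which summed to 55.87 RPKM in A1, 47.95 RPKM in A3 and 31.75 RPKM in A9, log2 ratios of 0.82 and 0.59 for A1 and A3 over A9. These partners did not move alike. The transcript comp28901_c0_seq1 had 6.65 RPKM in A1 and 7.35 RPKM in A3, against 6.73 RPKM in A9, whereas comp28901_c0_seq6 had 13.45 RPKM in A1 and 7.37 RPKM in A3, against 2.62 RPKM in A9. The member comp24591_c0_seq3 had 5.26 RPKM in A1 and 2.64 RPKM in A3, and in A9 it was at 0 together with comp24591_c0_seq2, which had 1.97 RPKM in A1 and 1.28 RPKM in A3. The third transcript, comp24591_c0_seq1, had 1.83 RPKM in A1 and 2.99 RPKM in A3, against 2.97 RPKM in A9.

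In the other 2 components the remaining transcripts were also low in the wild type. In comp43502_c0, the partners of comp43502_c0_seq3 summed to 51.15 RPKM in A1 and 22.54 RPKM in A3, against 3.20 RPKM in A9, log2 ratios of 4.0 and 2.82. The transcript comp43502_c0_seq4 alone had 24.33 RPKM in A1 and 10.69 RPKM in A3, against 1.94 RPKM in A9. The whole component was therefore lower in A9, and the 0 of the member was the lowest of 4 low values, from 0 to 1.94 RPKM. In comp28628_c0, the member comp28628_c0_seq1 had 2.64 RPKM in A1 and 3.04 RPKM in A3, and its partner comp28628_c0_seq2 had 5.38 RPKM in A1 and 3.82 RPKM in A3, against 0.96 RPKM in A9. The log2 ratios of this partner were 2.49 in A1 and 1.99 in A3.

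Among the 5 components of the class off in both mutants, the other transcripts of comp42726_c0 were at similar levels in the lines. They summed to 5.13 RPKM in A1 and 5.29 RPKM in A3, against 5.67 RPKM in A9. The member comp42726_c0_seq4 had 0 in both mutants and 8.85 RPKM in A9, where it made 61.0% of the component. The component as a whole was thus lower in the mutants, with log2 ratios of -1.50 for A1 and -1.46 for A3, through this 1 transcript. In comp25679_c0 the member comp25679_c0_seq2, at 3.53 RPKM in A9, made 60.0% of the component there. Its partner comp25679_c0_seq1 had 2.34 RPKM in A1 and 4.80 RPKM in A3, against 2.35 RPKM in A9, a log2 ratio of 1.03 for A3, where the member was listed at 0.

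The member comp19070_c0_seq2, at 2.59 RPKM in A9, made 51.8% of its component there. Its partners summed to 1.60 RPKM in A1 and 2.67 RPKM in A3, against 2.41 RPKM in A9. For comp29500_c0_seq2, with 3.87 RPKM in A9 and 30.4% of the component, the 4 partners summed to 8.17 RPKM in A1, 9.08 RPKM in A3 and 8.87 RPKM in A9. The largest component was comp37371_c0, with 24 transcripts, of which 22 besides the member were above 0 in all lines. Its member comp37371_c0_seq14 had 3.55 RPKM in A9, which was 7.75% of the component. The others summed to 40.39 RPKM in A1, 46.39 RPKM in A3 and 42.25 RPKM in A9. Within it, comp37371_c0_seq18 had the same direction as the member, with 0.83 RPKM in A1 and 1.54 RPKM in A3, against 8.26 RPKM in A9, and comp37371_c0_seq9 the opposite one, with 2.51 RPKM in A1 and 2.64 RPKM in A3, against 0.24 RPKM in A9.

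**Figure D4:**
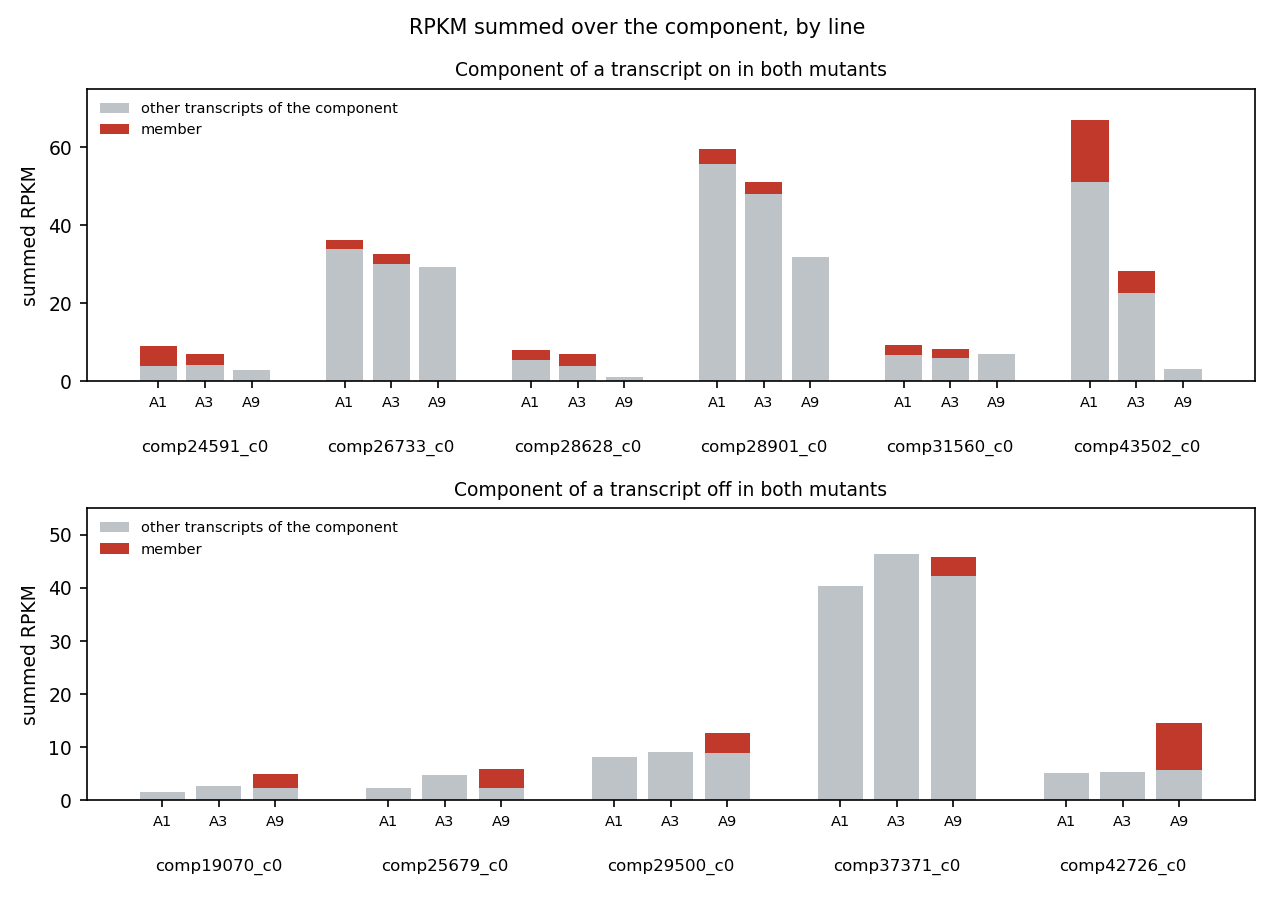
RPKM summed over the component in A1, A3 and A9 for the 11 components that hold a member and another transcript present in all 3 lines, with the member in red and the other transcripts in grey. The grey parts are of similar height in the lines for comp26733_c0, comp31560_c0, comp29500_c0, comp37371_c0 and comp42726_c0, while in comp43502_c0 the grey part is 51.15 RPKM in A1, 22.54 RPKM in A3 and 3.20 RPKM in A9.

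Summed over the other transcripts of the component, the median log2 ratio over A9 was 0.59 in A1 and 0.56 in A3 for the 6 members on in both mutants, and -0.12 in A1 and 0.13 in A3 for the 5 off in both mutants. Over all transcripts with such partners it was 0.00 in A1 and 0.02 in A3. At least a 2-fold difference was met in 2 of the 6 in both mutants, beside 4.97% of all for A1 and 3.66% for A3. The same components, comp43502_c0 and comp28628_c0, met it in both mutants, and no excess is read from so small a count. Without comp43502_c0, the median for A1 was 0.36. These medians rest on few members and on leaving out partners at 0. With 0.1 RPKM added, so that members with partners at 0 entered, the medians were 1.59 in A1 and 1.24 in A3 for 8 members on in both mutants. For 9 members off in both mutants they were -0.56 in A1 and -0.098 in A3, so that the sign for A3 turned. The members added from comp10202_c0 and from comp27047_c0 are each other's partners. The rule itself therefore set those partners at 0, and the medians with 0.1 RPKM added partly restate the choice of members. In the class off in both mutants at least a 2-fold difference was met in 0 of 5 for A1 and in 1 of 5 for A3. The ratios of both mutants share the single A9 library.

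No component held members of both classes, also when the threshold was lowered to 1 RPKM. As 31 of the 39 and 82 of the 91 members were the sole transcript of their component, few could have shared one, and nothing is read from this count. One member was near another component of the same number: comp32339_c0_seq1 had 3.93 RPKM in A9 and 0 in the mutants, while comp32339_c1_seq1 had 8.28 RPKM in A1 and 8.16 RPKM in A3, against 11.09 RPKM in A9.

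Which line stood apart most often depended on the level that counts as present. By the same rule at 2 RPKM, 50 transcripts were listed at 0 in A1 alone (0.0319% of all) and 30 in A3 alone (0.0191%), beside the 39 in A9 alone. Present in A1 alone were 126 transcripts (0.0803%) and in A3 alone 85 (0.0542%), beside the 91 in A9 alone. In both patterns A9 lay between the mutants at this level. With at least 5 RPKM as present, the numbers listed at 0 were 13, 8 and 5 for A1, A3 and A9. The numbers present alone were then 9 for each mutant and 11 for A9, the highest. With at least 1 RPKM, they were 492, 459 and 488 for a value of 0, and 598, 455 and 631 for presence, in A1, A3 and A9, so that A9 had the most transcripts present alone at both of these levels. Of these libraries, A9 also had the most clean reads and the fewest transcripts listed at 0. How the depth of the libraries bears on these counts was not tested.

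**Figure D5:**
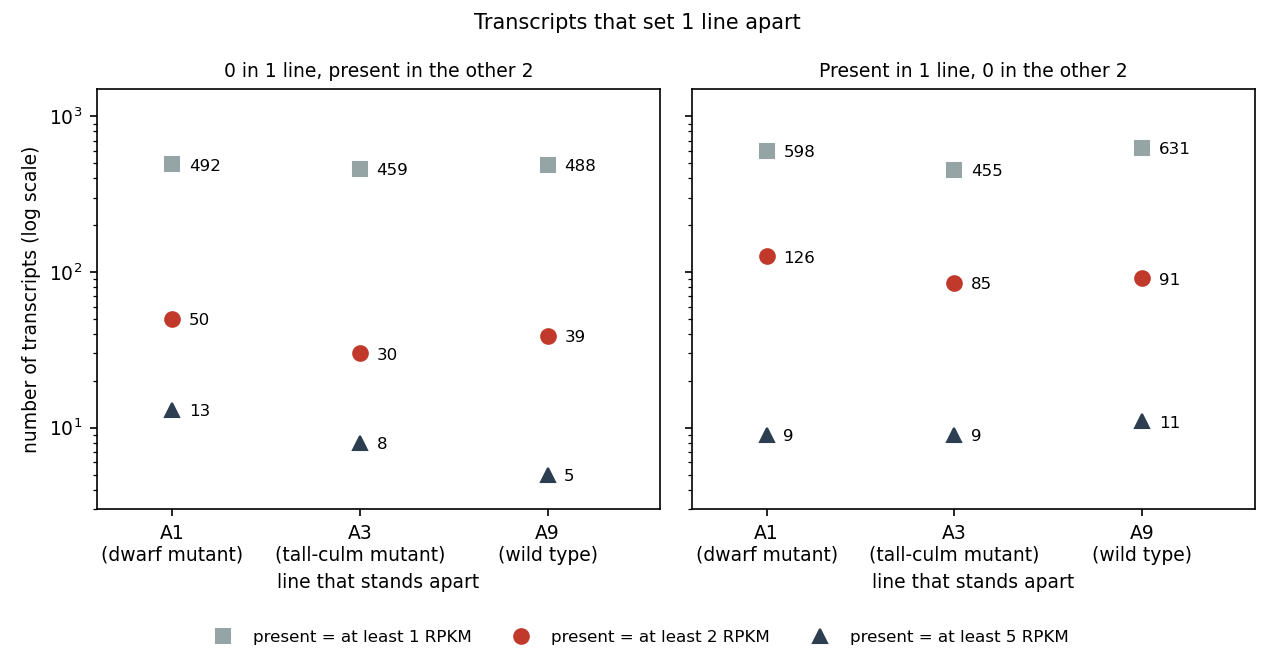
Number of transcripts (log scale) that are listed at 0 in 1 line and present in the other 2 (left), or present in 1 line and at 0 in the other 2 (right), by the line that stands apart and by the RPKM that counts as present, with a mean below 10 RPKM. At 2 RPKM the wild type has 39 and 91, between 30 and 50 on the left and between 85 and 126 on the right.

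The additional files of the paper name 512 of the assembled transcripts, counted over all of its tabular files and not over lists of miRNA targets alone. None of the 512 was a member, and none lay in a component that holds a member. With members at 0.0249% and 0.0580% of all transcripts, a list of this size would often hold none, so nothing is read from this count. Of the 512, 484 were above 0 in all 3 lines. A value of 0 in A9 alone was listed for 7 of them, each under the threshold in a mutant, and a value of 0 in both mutants for 0.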

How the data were processed

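Stem apex mRNA of A1, A3 and A9 was examined in 1 library per line. After cleaning the reads, the authors made a joint Trinity assembly of all lines and deposited an RPKM value to 2 decimals for every transcript in every library. The read mapper and the treatment of reads that match several transcripts are not given in the sources used here. The 3 small RNA libraries were not used here.

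The values were joined by transcript name, and the component is the name without the final _seq number. The members and lists were chosen with earlier results of these data known. A value above 0 counted as present for other transcripts. Log2 ratios were computed without a pseudocount, and none against 0. With 1 library per line no test was run. The modal ratio between libraries was taken from transcripts of 0.3 to 3 RPKM in log bins of 0.005. Transcripts were named by rank in each class (the 8 highest by their lowest present value, the 6 with the highest partners, 3 on each side of the threshold). Those named for their ratio of A1 over A3, in comp27047_c0, comp5526_c0 and comp32339, or as partners, were chosen after their values were seen. The alternatives were other thresholds, limits, scalings, pseudocounts and units. The code of the rule was checked on simulated data with planted members. These met the rule by design, so the check does not bear on the rule itself. Python 3.11.15, numpy 2.4.6, pandas 2.3.3 and matplotlib 3.10.9 were used.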

Additional observations from a re-analysis of the deposited data

How the results depend on the processing

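No paired analysis was possible because each line has a single library, and for the same reason no library could be left out. The threshold changed the numbers most. At 1 RPKM there were 488 transcripts on and 631 off in both mutants, and at 5 RPKM 5 and 11. By the same rule, chosen after seeing the data, 492 and 13 were listed at 0 in A1 alone, 459 and 8 in A3 alone, 598 and 9 were present in A1 alone and 455 and 9 in A3 alone, at 1 and 5 RPKM. Taking 0.1 RPKM as absent and sums over the component kept both numbers within 1.5 times, from 33 to 44 on and from 86 to 116 off. The limit on the mean was kept for the sums, which left out comp10202_c0 at 20.71 RPKM in A1 and 16.10 RPKM in A3. The 33 on by sums are components, and not the 33 members whose whole component was at 0 in A9. Scaling was applied to the mutant libraries only and gave 39 and 38 on. It could not change the 91 off, because a 0 stays 0 and A9 was not scaled. The limit on the mean had removed no transcript, so lifting it could change neither number.

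With other transcripts required at 2 RPKM in each line, 5.13% of the members on and 3.30% of those off in both mutants had such a partner. With members at 1 RPKM the shares were 7.17% and 1.9%, and at 5 RPKM 20% (1 of 5) and 9.09% (1 of 11). Adding 0.1 or 1 RPKM brought partners at 0 into the medians. Among them were those of comp10202_c0 and comp27047_c0, which are members themselves and were at 0 by the rule. For members on in both mutants the median log2 ratio was then 1.59 and 1.25 in A1 and 1.24 and 0.94 in A3, and for members off in both mutants -0.56 and -0.39 in A1. For A3 the members off in both mutants changed sign, to -0.098 and -0.085. With sums of at least 1 RPKM, or without comp43502_c0, the A1 median of the members on in both mutants was 0.36.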
